A study of Mus musculus with 3 samples.

Results

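Histone genes were compared between LLC/luc parental cells and the sublines BM 1st and BM 2nd that had been taken from bone metastases. A gene was counted as a histone gene when its present symbol, or an older RefSeq symbol of the same gene, began with Hist1h, Hist2h, Hist3h, Hist4h, H1f, H2af, H3f, H2ac, H2bc, H3c or H4c. This gave 74 genes with 112 probes, of 19057 genes that had a probe with 1 gene name. Of these, 60 were cluster histones, whose older symbols began with Hist, and 14 were replacement variants. The parental line, LLC/luc, is a Lewis lung carcinoma line of C57BL/6 origin that carries the luciferase gene. BM 1st cells were cultured from a bone lesion that formed after LLC/luc cells had been injected into the left heart ventricle of a mouse, and BM 2nd cells were cultured in the same manner after the BM 1st cells had been injected in turn. All 3 lines therefore share the C57BL/6 background and the luciferase gene, and each bone line is 1 culture that had grown in a mouse. RNA of each line was hybridised to 1 Illumina mouse bead array, so no replicate stood behind any value and no difference could be tested.

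Histones are the proteins around which DNA is wrapped. Cluster histones are made mainly in S phase, in step with DNA replication, and their transcripts end in a stem-loop in place of a poly(A) tail, which the stem-loop binding protein SLBP recognises. Replacement variants are made outside S phase too, from polyadenylated transcripts, and are exchanged into chromatin without replication. The sources used here do not give how the RNA was primed for labelling.

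The arrays were scaled to each other, and background stood at an intensity of 109 on the parental, 110 on the BM 1st and 107 on the BM 2nd array, taken as the 95th percentile of 1504 probes for olfactory or vomeronasal receptors. A gene was read from its brightest probe and kept when its mean log2 intensity over the 3 arrays was above that background, which held for 9655 genes. The spread between probes of the same gene, which stands in here for that between replicates, had a median SD of 0.131 in the log2 BM 1st/P ratio over 3154 genes, with a 95th percentile of 0.396. It is a spread within arrays and not between cultures. The log2 BM 1st/P ratios of the 1504 receptor probes, read at background intensities, ran between -0.46 and 0.48. Against the labelled cell type, the epithelial markers Krt8 and Krt18 were above background on every array, at 1381, 996.6 and 2509 for Krt8 and 2025, 2280 and 1274 for Krt18 in parental, BM 1st and BM 2nd cells. Epcam was not above background on any array, and Cdh1 lay just above it, between 116.3 and 124.8. Of the leukocyte markers, Itgam and Tyrobp were not above background on any array, and Ptprc reached 110.8 in BM 1st cells alone. The leukocyte list, 4 of 5 genes with a probe, summed to 386, 1379 and 649.8 in parental, BM 1st and BM 2nd cells, through lysozyme Lyz2 at 79.54, 1078 and 364.9. The stromal list summed to 498.1, 2066 and 6745, through lumican (Lum) at 197.9, 1742 and 6133 and, in BM 2nd cells, Col1a1 at 411.7, while Pdgfrb was not above background on any array and Col1a2 was at 110, 106.8 and 103.8. These markers moved between the lines by the values given, and their part in the histone results was not tested.

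Promoters of 4 histone genes, chosen after their values were seen, are shown so that genes with unlike ratios in BM 1st cells can be read beside the promoter elements they share. H2ac12 and H2ac15 were the 2 H2A genes with the lowest ratio in BM 1st cells. H2bc12 is the H2B gene read in the opposite direction from the same promoter region as H2ac12, and H2ac18 is an H2A gene that was not lower in BM 1st cells. Each window is RefSeq sequence of GRCm38.p6, from 250 bases before to 50 bases after the annotated start of the gene, written 5′ to 3′ on the strand of the gene. The windows are chr13:22035594-22035893 (minus strand) for H2ac12, chr13:22035571-22035870 (plus strand) for H2bc12, chr13:21753863-21754162 (minus strand) for H2ac15 and chr3:96245247-96245546 (plus strand) for H2ac18. Capitals mark the octamer ATTTGCAT and the CCAAT box, each on either strand, and the TATA box TATAAA on the strand of the gene.
H2ac12: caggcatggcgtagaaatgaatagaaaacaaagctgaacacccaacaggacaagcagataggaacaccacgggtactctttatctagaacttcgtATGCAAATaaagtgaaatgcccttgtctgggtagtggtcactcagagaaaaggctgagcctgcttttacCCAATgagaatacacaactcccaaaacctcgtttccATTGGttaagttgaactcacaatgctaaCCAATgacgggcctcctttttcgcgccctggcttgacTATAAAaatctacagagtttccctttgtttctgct
H2bc12: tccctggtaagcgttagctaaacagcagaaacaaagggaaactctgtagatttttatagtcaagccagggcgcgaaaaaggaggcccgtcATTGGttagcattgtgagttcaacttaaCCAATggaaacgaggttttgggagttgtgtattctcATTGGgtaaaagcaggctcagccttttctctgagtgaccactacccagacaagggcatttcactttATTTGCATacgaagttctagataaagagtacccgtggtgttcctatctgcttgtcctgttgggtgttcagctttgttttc
H2ac15: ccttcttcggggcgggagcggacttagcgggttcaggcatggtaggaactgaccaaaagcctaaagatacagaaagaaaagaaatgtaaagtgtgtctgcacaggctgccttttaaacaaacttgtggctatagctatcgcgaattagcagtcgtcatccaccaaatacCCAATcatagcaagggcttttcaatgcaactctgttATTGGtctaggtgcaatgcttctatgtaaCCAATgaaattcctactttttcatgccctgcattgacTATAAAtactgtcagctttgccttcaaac
H2ac18: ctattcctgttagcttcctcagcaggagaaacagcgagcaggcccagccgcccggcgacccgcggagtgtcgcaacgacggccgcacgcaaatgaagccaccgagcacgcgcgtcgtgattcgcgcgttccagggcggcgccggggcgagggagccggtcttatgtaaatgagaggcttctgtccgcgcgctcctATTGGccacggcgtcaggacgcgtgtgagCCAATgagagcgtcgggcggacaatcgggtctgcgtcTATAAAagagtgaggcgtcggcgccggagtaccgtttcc
The windows of H2ac12 and H2bc12 overlap and hold the same octamer and the same 3 CCAAT boxes, and TATAAA lies on the H2A strand alone. H2ac15 holds 3 CCAAT boxes and a TATA box and no octamer in this window, and H2ac18 holds 2 CCAAT boxes and a TATA box.

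A promoter window was found for 47 of the 52 histone genes kept, with H2bc6 matching 2 windows. CCAAT was present in 32 of 39 windows of cluster histones (82.1%) and in 12289 of all 32851 mouse windows of this length (37.4%). It was found in 14 of 14 H2A, 9 of 9 H2B and 5 of 5 H3 windows, against 2 of 9 H4 windows (22.2%). The octamer was present in 4 of 14 H2A windows (28.6%), 4 of 9 H2B windows (44.4%) and no H3 or H4 window, against 570 of all windows (1.74%). Windows of divergent pairs overlap, so the same site can count for both families. The octamer of H2ac12 is that of H2bc12, and the octamer of H2ac8 is that of H2bc8. TATAAA was present in 8 of 14 H2A windows (57.1%), 1 of 9 H2B windows (11.1%) and 8 of 9 H4 windows (88.9%), against 2733 of all windows (8.32%). No overlap between these motifs occurred in the windows of the histone genes. These are matches of letters and carry no statement on what bound there.

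Most cluster histones had a lower signal in BM 1st cells, and H2A genes lay furthest below parental level. Of the 60 cluster histones, 42 were kept, and their median log2 BM 1st/P ratio was -0.59, against -0.00 over all genes kept. The ratios ran between -2.70 and 0.86, and 33 of the 42 were below 0. Past the threshold of 1 on the log2 scale, a 2-fold difference, 10 cluster histones were lower in BM 1st cells and 0 were higher, where 1.93% of all genes kept were lower and 2.20% were higher. All 10 coded for H2A. Over all 60 cluster histones, with no filter, the median was -0.26 and the same number, 10, was lower. In RNA of a whole culture, fewer cells that carry a transcript and less transcript per cell cannot be told apart.

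**Figure D1:**
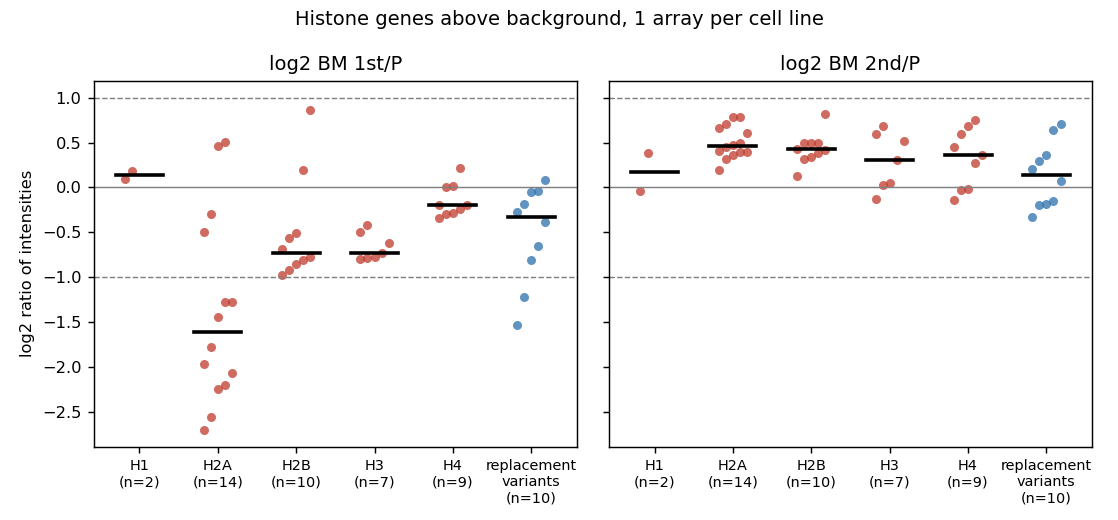
log2 ratio of the BM 1st (left) and BM 2nd (right) intensity to the parental intensity for each histone gene kept (points), by family of the cluster histones (red) and for the replacement variants (blue). Black bars are medians over genes and dashed lines the threshold of 1. In BM 1st cells the H2A genes had a median of -1.61 and the H4 genes of -0.20, while in BM 2nd cells no histone gene passed the threshold.

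The core histones differed by family. The median log2 BM 1st/P ratio was -1.61 over the 14 of 17 H2A genes that were kept, -0.73 over 10 of 15 H2B genes, -0.73 over 7 of 9 H3 genes and -0.20 over 9 of 13 H4 genes. Over all 17 H2A genes with no filter it was -1.28. H2A and H2B form the dimers, and H3 and H4 the tetramer, of the nucleosome core. None of the H2B, H3 or H4 genes passed the threshold in either direction, and the H2B gene H2bc15 came nearest at -0.97. With the array background subtracted, the medians were -1.90 for H2A with 11 genes lower, -0.79 for H2B with 2 lower, -0.82 for H3 with 2 lower and -0.30 for H4 with 0 lower, so the order of H2A below the other families and H4 above them was the same. The share of all genes lower with background subtracted is not given here, and differences between families were not tested.

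Several H2A genes stood at the low end of all genes kept. H2ac15 had intensities of 5347, 822.7 and 8725 in parental, BM 1st and BM 2nd cells and was 6.5-fold below its parental level in BM 1st cells. H2ac12 had 5377, 919.7 and 8492 and was 5.85-fold below it. These were the lowest and the next lowest log2 BM 1st/P ratios, -2.70 and -2.55, of the 9655 genes kept. Both belong to the large Hist1 cluster on chromosome 13. Of the 10 lowest genes 3 were cluster H2A genes, of the 20 lowest 5, and of the 186 genes lower in BM 1st cells 10. Cluster H2A genes made up 14 of the 9655 genes kept. Whether their probes read separate transcripts was not tested, so these are not counts of independent genes.

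The other H2A genes of chromosome 13 that passed the threshold followed the same order of lines. H2ac7 had 17924, 3782 and 23687 in parental, BM 1st and BM 2nd cells, and its log2 BM 1st/P ratio was -2.24. H2ac24 had 21271, 4613 and 32459, with a ratio of -2.20. H2ac22 had 4880, 1167 and 6662, with a ratio of -2.06. In each of these genes BM 1st was the lowest and BM 2nd the highest line. H2ac11 had 1092, 279.5 and 1876, with a ratio of -1.97. H2ac13 had 16164, 5944 and 21298 on its brighter probe, with a ratio of -1.44, and a ratio of -2.23 on the other. H2ac10 had 23267, 9559 and 32642, with a ratio of -1.28. Altogether 8 of the 10 H2A genes kept from the Hist1 cluster were lower past the threshold, and their median ratio was -2.02. The 2 that were not, H2ac8 and H2ac4, are named here after their values were seen. H2ac8 had 277, 224.7 and 356.5 (log2 BM 1st/P -0.30). H2ac4 had 147.5, 104.4 and 167.9 and did not reach background in BM 1st cells, where it was lower than in parental cells by at least 1.34-fold.

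H2A genes of the Hist2 cluster on chromosome 3 were split. H2ac21 had intensities of 659, 191.8 and 1130 in parental, BM 1st and BM 2nd cells, with a log2 BM 1st/P ratio of -1.78. H2ac20 had 18199, 7489 and 24196, with a ratio of -1.28. Both were thus lowest in BM 1st cells, as the genes of chromosome 13 were. A dimmer probe of H2ac20, however, read 136.4, 136 and 147.3, with a ratio of -0.00. The neighbouring genes H2ac18 and H2ac19, named after their values were seen, went the other way. H2ac18 had 371.5, 527.5 and 464.4 and a ratio of 0.51, and H2ac19 had 542.3, 747.6 and 748.6 and a ratio of 0.46. All 3 probes of H2ac18 had a ratio above 0, at 0.51, 0.19 and 0.20. The probe at 0.19 read 167 and 190.4 in parental and BM 1st cells. The probe at 0.20 read 101.4 and 116.9, near background, and was not above it in parental cells. The promoter windows of H2ac18 and H2ac19 share a long run of identical sequence. Whether their probes read separate transcripts was not tested, so they are not counted as separate exceptions. Over the 4 Hist2 H2A genes the median was -0.41.

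**Figure D2:**
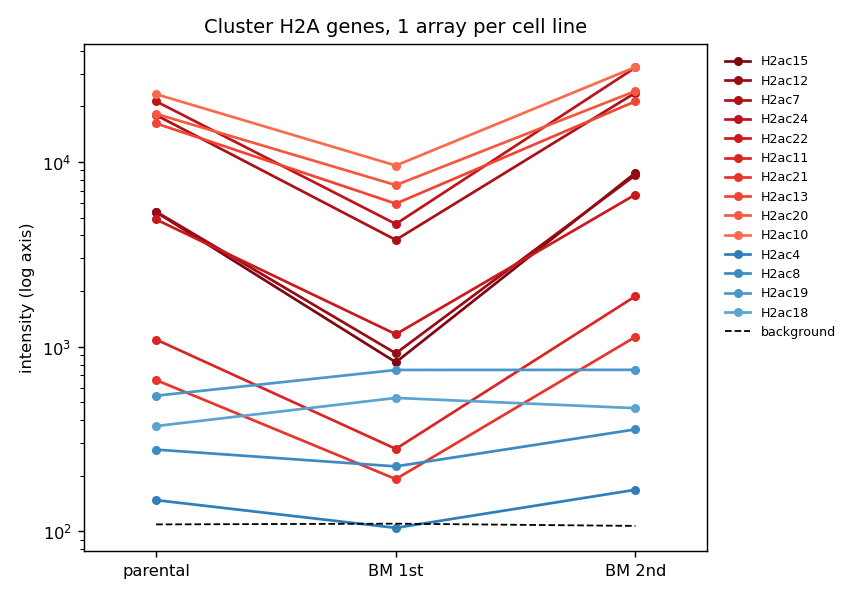
Intensity (log axis) of the 14 cluster H2A genes kept in the 3 lines, from 1 array per line. The 10 genes lower past the threshold in BM 1st cells are in red, the other 4 in blue and the array background is dashed. All red lines dip at BM 1st and end above their parental level in BM 2nd, and H2ac18 and H2ac19 do not dip.

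H2B genes were lower in BM 1st cells by a smaller ratio than H2A genes. H2bc15 had 603.2, 306.9 and 660 in parental, BM 1st and BM 2nd cells (log2 BM 1st/P -0.97) and H2bc6 had 1653, 872 and 2086 (-0.92), both chosen after their values were seen. Of the 10 H2B genes kept 8 were below 0. The exceptions were H2bc8, with 133.1, 152.3 and 188.6, and H2bc21. The brighter probe of H2bc21, a Hist2 gene on chromosome 3, read 272.3, 495.2 and 479.4 (0.86), while its other probe read 254.4, 173.8 and 326.8 (-0.55). The direction of H2bc21 in BM 1st cells therefore depends on the probe.

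Many H2A and H2B genes lie head to head and are read in opposite directions from a shared stretch of promoter. In 5 such pairs on chromosome 13 both genes were kept, with annotated starts between 164 and 249 bases apart. In all 5 pairs the H2A gene had the lower log2 BM 1st/P ratio. H2ac12 and H2bc12, whose promoter is printed above, had ratios of -2.55 and -0.51, a difference of -2.04. For H2ac15 and H2bc15 they were -2.70 and -0.97, for H2ac7 and H2bc7 -2.24 and -0.81, and for H2ac11 and H2bc11 -1.97 and -0.69. The smallest difference, -0.50, was that of H2ac8 and H2bc8, at -0.30 and 0.19. In BM 2nd cells the pairs did not share 1 direction. H2ac12 and H2bc12 had log2 BM 2nd/P ratios of 0.66 and 0.38. For H2ac15 and H2bc15 these ratios were 0.71 and 0.13, and for H2ac11 and H2bc11 0.78 and 0.32. The H2A gene had the lower ratio in H2ac7 and H2bc7, at 0.40 and 0.50, and in H2ac8 and H2bc8, at 0.36 and 0.50.

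**Figure D3:**
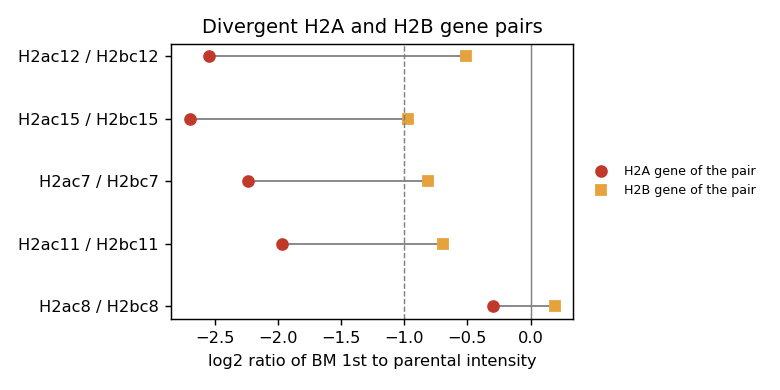
log2 ratio of BM 1st to parental intensity for the H2A gene (circle) and the H2B gene (square) of 5 divergent pairs, with the threshold of -1 dashed. In each pair the H2A gene lies to the left, from -2.55 against -0.51 for H2ac12 and H2bc12 to -0.30 against 0.19 for H2ac8 and H2bc8.

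H3 genes were below parental level in BM 1st cells throughout, and H4 genes were close to it. All 7 H3 genes had a log2 BM 1st/P ratio between -0.80 and -0.42. H3c13 had 4796, 2756 and 4970 in parental, BM 1st and BM 2nd cells and H3c10 had 2644, 1539 and 2695, both chosen after their values were seen. The 9 H4 genes lay between -0.34 and 0.22. H4c4 had 113.1, 113.5 and 111.7, close to background, and H4c11 had 220.6, 223 and 266. Of the 42 cluster histones kept, these were the 2 with the log2 BM 1st/P ratios closest to 0, at 0.01 and 0.02. Among the linker histones, which bind DNA between nucleosomes, 2 of 6 cluster genes were kept. H1f2 had 5591, 6323 and 7288 on its brighter probe and 3725, 4559 and 5380 on the other, so that both were lowest in parental cells. H1f5 had 114.1, 121.9 and 110.9, close to background.

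In BM 2nd cells most cluster histones were at or above parental level. The median log2 BM 2nd/P ratio over the 42 genes was 0.42, against 0.00 over all genes kept, and 37 of 42 were above 0. The range was -0.14 to 0.82, and 0 cluster histones passed the threshold, where 2.01% of all genes kept were higher and 1.68% were lower. The H2A genes lay between 0.19 and 0.78 and the H2B genes between 0.13 and 0.82, all above 0. The medians were 0.46 for H2A, 0.42 for H2B, 0.31 for H3 and 0.36 for H4, so the families lay closer together than in BM 1st cells.

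Set against BM 1st cells, BM 2nd cells had more of most cluster histones. The median log2 BM 2nd/BM 1st ratio was 0.94, against -0.02 over all genes kept. Past the threshold 20 of 42 cluster histones were higher in the BM 2nd line and 0 were lower, where 3.29% of all genes kept were higher and 1.95% were lower. The 20 were 10 H2A, 7 H2B and 3 H3 genes. In BM 2nd cells H2ac15 stood 10.6-fold and H2ac12 9.23-fold above the BM 1st level, and H2ac18 was not higher, at -0.18. This comparison shares the BM 1st array with the comparison of BM 1st and parental cells, so a low reading on that array enters both. Of the 42 cluster histones 31 (73.8%) were lowest in BM 1st and highest in BM 2nd cells, an order seen in 1833 of 9655 genes kept (19.0%).

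Replacement variants had smaller median ratios than cluster histones, and the difference between the classes was not tested. Of 14, 10 were kept, and H1f0 has no probe paired with it in the annotation used. The median log2 BM 1st/P ratio was -0.32, 9 of 10 were below 0, and 2, H2ax and H1f10, were lower past the threshold, against 1.93% of all genes kept. With the probes of a gene averaged 1 was lower, although neither probe of H1f10 reached background in BM 1st cells. Over all 14 with no filter the median was -0.12. Cluster H4 genes, at a median log2 BM 1st/P ratio of -0.20, and the 2 cluster H1 genes, at 0.14, lay nearer 0 than the -0.32 of the variants. With present symbols alone 3 variants were left, and their median of -0.65 was below the -0.59 of cluster histones. In BM 2nd cells the median log2 BM 2nd/P ratio of the 10 variants was 0.14 and none passed the threshold. BM 2nd against BM 1st cells gave a median of 0.29, with 3 variants higher past the threshold, against 3.29% of all genes kept.

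H2ax was the replacement variant with the lowest ratio in BM 1st cells. H2AX is the H2A variant that is phosphorylated beside DNA breaks, and its gene can also yield a stem-loop transcript. H2ax had 1463, 506.9 and 1531 in parental, BM 1st and BM 2nd cells and stood 2.89-fold below parental level in BM 1st cells (log2 -1.53). H1f10, a linker histone, was also lower, with 241.7, 103.7 and 394.9. Since its BM 1st reading did not reach background, it was at least 2.2-fold lower in BM 1st cells than in the parental line, and BM 2nd cells had at least 3.6-fold more of it than BM 1st cells. The dimmer probe of H1f10 had 154.7, 106.8 and 186.8, the same order of lines. It too did not reach background in BM 1st cells, which makes it lower than in the parental line by at least 1.41-fold, a bound that leaves its side of the threshold unknown.

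The H2A.Z genes differed from each other. H2A.Z is exchanged into nucleosomes near the start sites of genes. H2az2 had 1511, 859 and 2347 in parental, BM 1st and BM 2nd cells, with log2 ratios of -0.81 for BM 1st/P and 1.45 for BM 2nd/BM 1st. H2az1 had 10399, 8001 and 9203, with log2 ratios of -0.38 and 0.20. H2az2 thus passed the threshold between BM 2nd and BM 1st cells and H2az1 passed none. H3f3a and H3f3b code for the same protein, H3.3. H3f3b had 10712, 6839 and 8544 (log2 BM 1st/P -0.65) and H3f3a had 5569, 5395 and 7130 (-0.05). In BM 2nd cells their log2 BM 2nd/P ratios were -0.33 and 0.36.

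The remaining 4 variants did not pass the threshold in any comparison by their measured values, of which Macroh2a2 in BM 1st cells was not above background. Macroh2a1 codes for macroH2A, an H2A with a large added domain that is enriched on the inactive X chromosome, and it had 3480, 3074 and 3131 in parental, BM 1st and BM 2nd cells. One of its 3 probes went the other way in BM 1st cells, with 865, 974.8 and 727.2. H2aj had 836.6, 885.1 and 1025, and its 3 probes lay between -0.07 and 0.08 in the log2 BM 1st/P ratio. Macroh2a2 had 123.2, 102.2 and 107.3 and H2al2a, known from the mouse testis, had 115.7, 112.3 and 134.3, so both lay near background. At these intensities a difference between lines could not be detected.

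**Figure D4:**
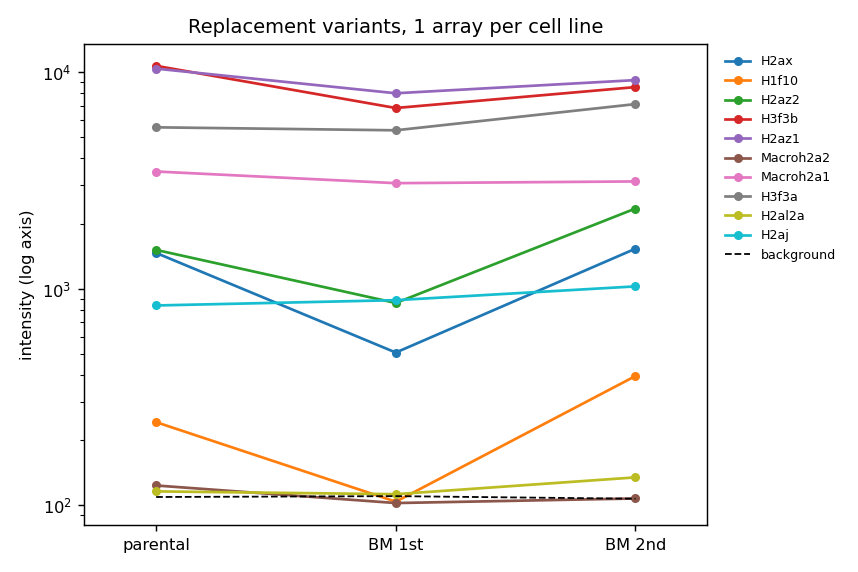
Intensity (log axis) of the 10 replacement variants kept, in the 3 lines, from 1 array per line, with the array background dashed. H2ax, H1f10 and H2az2 dip at BM 1st, to 506.9, 103.7 and 859, and Macroh2a2 and H2al2a run along the background.

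Readings of related histone genes may overlap, since genes of a histone family code for nearly or wholly the same protein. RefSeq listed the present symbol of another histone gene among the older names of 22 of the 42 cluster histones kept, namely 6 of 10 H2B, 7 of 7 H3 and 9 of 9 H4 genes. It did so for 0 of 14 H2A genes, which is a matter of names and does not show that their probes read separate transcripts. The sequences of the probes are not used here, so whether a probe also bound transcripts of a related gene was not tested, and the signal of each gene in a family may include that of others. The genes are therefore not counted as independent measurements. Of 20 histone genes with 2 or more probes above background, 15 had the same sign of the log2 BM 1st/P ratio on all of them and 5 did not, before rounding. Probes differed by more than 1 in 3 genes. H2ac10 had -1.28 on its brighter probe and -2.29 on the other, which read 8120, 1661 and 11949 in parental, BM 1st and BM 2nd cells. H2ac20 had -1.28 on its brighter probe and -0.00 on the other, which read 136.4, 136 and 147.3. H2bc21 is described above. Counted by probe, 14 of 21 H2A probes above background passed the threshold as lower in BM 1st cells. They came from 10 of 14 genes, and the share over all probes above background is not given here. The 2 probes of H2ac12 gave -2.55 and -2.49, and those of H2ac7 gave -2.24 and -2.34.

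Genes of DNA replication, which cluster histones accompany in S phase, were for the most part also lowest in BM 1st cells. Of 20 genes listed, 17 were kept, and their median log2 BM 1st/P ratio was -0.91, against -0.00 over all genes kept. Past the threshold 8 of the 17 were lower, where 1.93% of all genes kept were lower. Thymidylate synthase Tyms had 1147, 211.8 and 1394 in parental, BM 1st and BM 2nd cells, and the helicase subunit Mcm5 had 2857, 535 and 3728. Thymidine kinase Tk1 had 755.5, 213.2 and 1731, and was the gene of the list that was higher past the threshold in BM 2nd than in parental cells (log2 1.20). Ratios of Mcm3 at -1.49, the ribonucleotide reductase subunit Rrm2 at -1.27 and the replication licensing factor Cdc6 at -1.12 followed. Their part in the histone values was not tested.

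Histone chaperones were lower in BM 1st cells in part. Of 28 genes for chaperones and exchange factors, 22 were kept, with a median log2 BM 1st/P ratio of -0.28 and 20 below 0. Over all genes kept the median was -0.00 and 4887 of 9655 were below 0. Past the threshold 2 were lower, where 1.93% of all genes kept were lower, and both act on new histones. Hat1, which acetylates new H4, had 6539, 3129 and 6510 in parental, BM 1st and BM 2nd cells (-1.06), and Asf1b, which carries new H3 and H4, had 322.4, 156 and 345.2 (-1.05). In BM 2nd against BM 1st cells 4 of the 22 were higher past the threshold, against 3.29% of all genes kept. Of 14 genes for histone transcription and mRNA processing, 9 were kept, their median was -0.07 and none passed the threshold. Slbp, which codes for the stem-loop binding protein, read 68.26, 72.48 and 74.55 and was not above background on any array, so it gives no information on that protein in these cells.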

How the data were processed

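RNA of the parental line and of both bone sublines was measured on 3 arrays, 1 per line. The deposited values are linear intensities made by the authors with GenomeStudio 2011.1, as the submitters' processing notes name it, whose settings the sources used here do not give. Sorted intensities differed between arrays by at most 0.274, which is what quantile normalization leaves, and no intensity was below 60.2, so background was left in. This compresses ratios of dim genes. Of 45281 probes, the platform annotation paired 34885 with 1 gene and 18 with several, and left 10378 unnamed.

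Python 3.11.15 with pandas 2.3.3 and numpy 2.4.6 gave the log2 ratios, and matplotlib 3.10.9 the plots. Counting past the threshold was first tested on simulated data. The annotation held present symbols, so older RefSeq symbols (GRCm38.p6) decided between cluster histones and replacement variants and brought in 13 of the 74 genes. The threshold of 1 on the log2 scale is that of the study. No test was possible, and precision is limited by the number of arrays.

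The genes named are the replacement variants kept, cluster histones past the threshold in either bone line against parental cells, the 2 kept with the BM 1st/P ratio closest to 0, genes whose probes differed by more than 1, up to 6 supply genes per list past the threshold, and Slbp. Members and lists were chosen with earlier results of these data known. Alternatives, 11 planned and 1 added, varied the filter, background, scaling, probe choice, threshold and class.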

Additional observations from a re-analysis of the deposited data

How the results depend on the processing

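Of 138 values under 12 alternatives 115 stayed within the tolerance set and 23 moved. The tolerance was the median SD between probes for a median (0.131 in BM 1st/P, 0.135 in BM 2nd/P and 0.14 in BM 2nd/BM 1st) and 1.5 times for a count, so values within it could still differ. In these alternatives no count past the threshold changed direction. No paired analysis was possible because each line had 1 array. With no filter on intensity the medians were -0.26 for cluster histones and -0.12 for replacement variants in BM 1st/P, -0.03 for replacement variants in BM 2nd/P and 0.66 for cluster histones in BM 2nd/BM 1st, since dim genes with ratios near 0 entered, and the BM 2nd/P median thereby changed sign from 0.14. With background subtracted, the medians were -0.72 and 1.19 for cluster histones in BM 1st/P and BM 2nd/BM 1st and -0.52 for replacement variants in BM 1st/P. The number past the threshold then was 16 of 48 cluster histones in BM 1st/P, 15 of them lower. In BM 2nd/P it was 3 of 48 cluster histones and 1 of 10 replacement variants. The main setting kept 42 cluster histones, and the share of all genes past the threshold with background subtracted is not given here. A background at the 99th percentile gave a median of -0.51 for replacement variants in BM 1st/P. At 1.5-fold, 22 cluster histones (21 lower and 1 higher) and 4 replacement variants (all lower) passed in BM 1st/P, where 6.84% of all genes kept were lower and 6.96% higher. In BM 2nd/P 11 and 2 were higher, against 7.38%, and in BM 2nd/BM 1st 32 cluster histones were higher, against 9.31%. The number of replacement variants past the threshold in BM 1st/P was 1, not 2, when a gene had to be above background on all 3 arrays, when probes of a gene were averaged, and when H2ax was counted as a cluster histone. Present symbols alone, an alternative chosen after seeing the data, left 3 replacement variants. Their median in BM 1st/P was -0.65, below the -0.59 of cluster histones, an order opposite to that of the main setting. In BM 2nd/P their median was 0.36, and 1 was past the threshold in both BM 1st/P and BM 2nd/BM 1st. Centring the arrays on probes above background moved the median of all genes by 0.00.

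With 1 array per line, differences between cultures, arrays and cell lines cannot be told apart. Signals near background bound what could be seen in 22 of 74 histone genes, whose BM 1st/P ratios lay between -0.14 and 0.16.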

Other observations

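Among the 22 histone genes that were not kept, several were above background in BM 2nd cells alone, namely H2ac1, H2bc3, H3c3, H3c8, H4c3 and H4c14. H3c3, chosen here after its values were seen, had intensities of 80.89, 80.91 and 117 in parental, BM 1st and BM 2nd cells. It was higher in BM 2nd than in parental cells by at least 1.07-fold, a reading near background. Cstf2, a subunit of the cleavage complex that also acts on histone transcripts, came nearest to the threshold among the genes for histone mRNA processing, with 1187, 605.3 and 1035. The chaperone gene Nasp had 1020, 533.5 and 965, and the chromatin assembly genes Chaf1a and Chaf1b had log2 BM 1st/P ratios of -0.76 and -0.80 and log2 BM 2nd/BM 1st ratios of 1.22 and 1.37. Cdt1, which licenses replication origins, was the gene kept from the DNA replication list that was not below parental level in BM 1st cells, with 3980, 5609 and 2995.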
